A study of Mus musculus with 2 samples.

Results

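The Myc, Max and Mxd network was described in mouse hematopoietic stem cells (HSCs) negative or positive for a reporter of the chromatin organizer SATB1. Its 10 genes were taken by family: Myc and Mycn, their dimer partner Max, the antagonists Mxd1, Mxd3, Mxd4, Mxi1, Mnt and Mga, and Mlx, a Max-like partner. All 10 symbols were found among the 23210 genes used. They were chosen by family membership with the log2 ratios of Max and Mycn between the 2 libraries in view, so the values below describe the network and carry no test.

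The SATB1-negative group was Satb1-Tomato-negative and the SATB1-positive group Satb1-Tomato-positive, Tomato being a fluorescent reporter of Satb1. Cells of both groups were LSK cells (bone marrow cells negative for lineage markers and positive for Sca-1 and Kit) that were CD150+ and Flt3-. There was 1 library in each group. The age and number of the mice behind each library, and whether animals were pooled, are unknown here. The design asks by how much each gene's expression differs between reporter-negative and reporter-positive HSCs. Without replicates, no difference below could be set against a spread between animals.

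MYC-type proteins are basic helix-loop-helix leucine zipper factors that bind DNA only as dimers with MAX. MYC-MAX dimers bind E-box sequences and activate genes of growth, ribosome assembly and metabolism, whereas MXD, MNT and MGA proteins compete for MAX and recruit repressors to such sites. In the bone marrow, MYC and MYCN together are needed for HSCs to proliferate and survive, and MYC activity is tied to the balance between self-renewal and differentiation.

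Max and Mycn were lower in the SATB1-positive library, and Myc was at nearly the same level in both. Max was at 33.03 FPKM (fragment counts scaled by transcript length and by the mapped total) in SATB1-negative and 11.5 FPKM in SATB1-positive HSCs. Mycn was at 86.6 and 41.5 FPKM, and Myc at 138 and 139 FPKM. Among the antagonists the largest difference was that of Mxd4, 1.22-fold lower.

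Log2 ratios are of FPKM + 1, SATB1-positive over SATB1-negative. The rule of size asked for a log2 ratio of 1 or above, or of -1 or below, in a gene that reached 5 FPKM in at least 1 library. This minimum left 9308 genes, among them all 10 members, of which 2 passed as lower and 0 as higher. Over the 9308 genes, 64 (0.688%) passed as lower and 122 (1.31%) as higher. Since these ratios were known when the family was picked, nothing is read from the members' share of 20%. The members' median log2 ratio was -0.09, beside -0.0059 over the 11873 genes measured, that is, reaching 1 FPKM in at least 1 library. Of the members, 5 had a ratio below 0 and 5 above.

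Folds below are plain ratios of FPKM, and the range after each is a 95% interval for counting error alone (Clopper-Pearson, on fragment numbers estimated from the FPKM). They rest on estimated depths of 34680000 fragments for SATB1-negative and 26720000 for SATB1-positive HSCs. Fragments copied by PCR are not independent molecules, so these intervals can be too narrow. In sorted bulk cells, fewer cells of a type and less RNA per cell cannot be told apart.

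The reporter gene separated the libraries in the labelled direction, with Satb1 at 2.37 FPKM in SATB1-negative and 8.26 FPKM in SATB1-positive HSCs. Of 15 HSC markers, 14 reached 5 FPKM in either library; 14 had a log2 ratio below 0, with a median of -0.53, and Kit, the most abundant, was at 318 and 286 FPKM. Marker genes of other cell types also differed between the libraries. All 17 T and NK cell markers had a ratio above 0, and 7 of them reached 5 FPKM in either library (Il2rb 1.69 and 13.6 FPKM, Cd3e 2.75 and 15.4 FPKM). The summed level of the 17 was 189 and 449 FPKM. Most of each sum came from Nkg7 (152 and 313 FPKM), named here because of its large part in them. All 7 measured mast cell and basophil markers of 9 listed were also above 0 (199 and 634 FPKM summed; Mcpt8 24.8 and 103 FPKM, Fcer1a 1.75 and 9.70 FPKM). Their other 2 genes, the mast cell protease genes Cma1 and Tpsb2, were listed at 0 in SATB1-negative and at 0.729 and 0.720 FPKM in SATB1-positive HSCs. Of 12 neutrophil and granule markers, 6 were above 0 and 6 below, with a median of 0.01. By the rule of size, 4 passed as higher and 0 as lower, beside 1.31% and 0.688% of the 9308 genes. Those 4 were Mpo, Ctsg, Ms4a3 (52.5 and 139 FPKM) and Elane (490 and 1081 FPKM), and Prtn3 and S100a9 were also above 0. Mpo (437 and 1528 FPKM) and Ctsg (31.9 and 111 FPKM) had the highest ratios of this list, while Camp (84.8 and 55.98 FPKM), Ltf (66.7 and 47.1 FPKM), S100a8, Ngp, Lcn2 and Mmp8, chosen after their values were seen, were on the lower side; the summed level was 1913 and 3798 FPKM. Of 8 B cell markers 7 stayed under 1 FPKM in both libraries, Cd79b being at 34.3 and 33.9 FPKM. All 20 G2 and M phase genes were above 0, with a median of 0.50 (Ube2c 145 and 207 FPKM). Whether these markers came from other cells or from the sorted cells themselves was not tested. The part of other cells, if present, and of the share of cycling cells in the network values was not tested either.

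**Figure D1:**
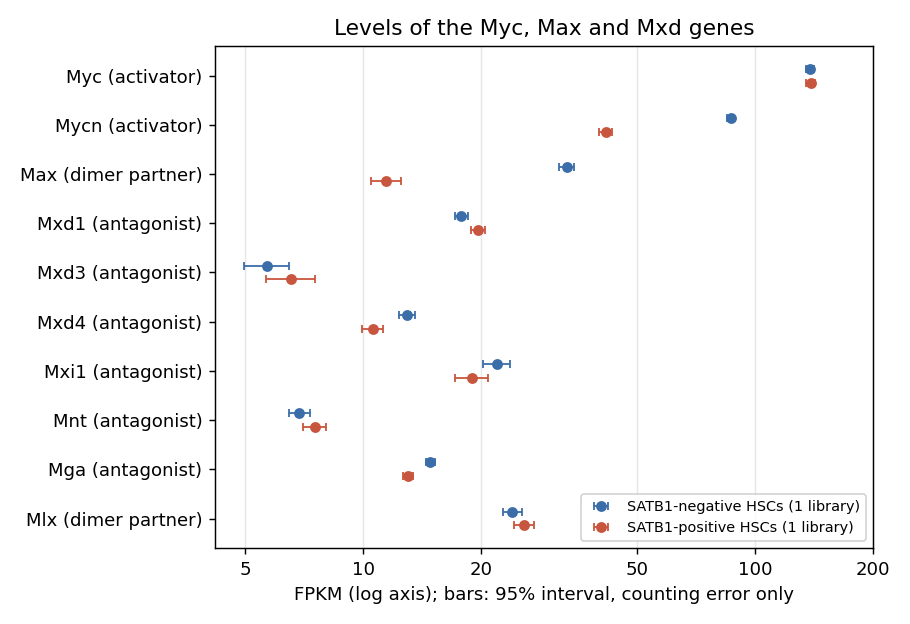
Level of each network gene in FPKM (log axis) in the SATB1-negative (blue) and SATB1-positive (red) library, 1 library per group; bars are 95% intervals for counting error only. Max (33.03 and 11.5 FPKM) and Mycn (86.6 and 41.5 FPKM) are the 2 genes whose points lie far apart.

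Max encodes the partner that MYC and MYCN need in order to bind DNA. The MXD proteins, MNT and MGA also pair with it. The gene (ENSMUSG00000059436.13) is on chromosome 12 of mm10, from 76937269 to 76962201 on the minus strand. Its level was 2.88-fold lower in the SATB1-positive library (2.62 to 3.18; about 1977 fragments in SATB1-negative and 528 in SATB1-positive HSCs), a log2 ratio of -1.45. This was the 31st lowest ratio among the 9308 genes. The 2 Max transcripts linked to RefSeq were 1926 and 1942 bases long, so the choice between them hardly moved the interval. No exon of another annotated gene overlapped those of Max, and 1 of its 1957 words of 50 bases occurred in a transcript of another gene.

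Printed here is the RefSeq promoter window of Max, the member with the largest difference, because it holds the E-box CACGTG that MYC-MAX dimers bind. It spans chr12:76962219-76962498 of GRCm38.p6, the assembly of mm10, and is read on the minus strand from 250 bases before the start site to 30 bases after it. Capitals mark the E-box, which begins 3 bases before the start site. Start sites of these windows come with the promoter sequences and differ from the gene spans given in the text. The printed window lies wholly upstream of the span given above for Max.
Max: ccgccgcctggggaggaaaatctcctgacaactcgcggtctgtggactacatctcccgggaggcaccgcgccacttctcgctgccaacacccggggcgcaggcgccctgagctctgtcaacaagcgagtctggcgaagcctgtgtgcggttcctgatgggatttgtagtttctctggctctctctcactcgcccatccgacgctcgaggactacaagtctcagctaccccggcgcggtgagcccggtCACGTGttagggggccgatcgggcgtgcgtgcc

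The 3 other members with an E-box in such a window were Mlx, Mnt and Mxd4, and their matches are shown for comparison with that of Max. Each stretch is 30 bases long, read in the direction of the gene, with the E-box in capitals. That of Mlx lies at chr11:101087239-101087268 on the plus strand, and its E-box begins 40 bases before the start site. That of Mnt lies at chr11:74830790-74830819 on the plus strand (123 bases before the start), and that of Mxd4 at chr5:34187911-34187940 on the minus strand (219 bases before the start).
Mlx: gtgggttggatCACGTGactgagcctcgcc
Mnt: cccacccaagcCACGTGtgcgcgcgcggtg
Mxd4: ggctgggccacCACGTGctgttgctaagct

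The E-box reads the same on both strands and was searched over windows from 250 bases before to 50 bases after each start site. It was present in 4 of 11 windows of the 9 members searched, which leave out Myc, and in 7.15% of all 32851 windows. The log2 ratios of the 4 members with this match were -1.45 for Max, 0.10 for Mlx, 0.11 for Mnt and -0.26 for Mxd4. Whether the E-box has a part in these ratios was not tested. A match is a description of the letters and does not show that a factor binds there.

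Mycn encodes N-MYC, a MYC-type activator that can take the place of MYC in many settings. The gene (ENSMUSG00000037169.15) also lies on chromosome 12, on the minus strand at 12936093 to 12941914. It was 2.08-fold lower in the SATB1-positive library (1.996 to 2.18; about 7426 and 2744 fragments), a log2 ratio of -1.04 and the 56th lowest of the 9308. This ratio is just past the threshold of -1. With a pseudocount of 5 in place of 1 it was -0.98, which does not pass. The member nearest to the threshold on the other side was Mxd4, at -0.26.

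No E-box lay in the Mycn window. It held 2 matches to TTTGGCGC, a form of the site bound by E2F factors of the cell cycle, which are known to activate Mycn. This motif was chosen with the window in view, and it is shown because Mycn is the other member past the threshold. The stretch is chr12:12941986-12942030 of GRCm38.p6 on the minus strand, with the matches in capitals, beginning 183 and 168 bases before the start site. As for Max, this start site is that of the promoter window and differs from the end of the gene span given above.
Mycn: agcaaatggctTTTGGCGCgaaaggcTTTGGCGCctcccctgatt

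Searched on both strands, TTTGGCGC was found in 0.514% of all windows and in none of the windows of the other 8 members searched. Since the motif was picked from the Mycn window, its match there was fixed in advance, and nothing is read from this comparison. Mycn was the lower of the pair of activators in both libraries, and its share of their summed level was 38.5% in SATB1-negative and 23.0% in SATB1-positive HSCs.

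Myc encodes c-MYC, the best known activator of the family. The gene (ENSMUSG00000022346.15) lies on the plus strand of chromosome 15 at 61985391 to 61990374. It was the most abundant member in both libraries, at 138 FPKM in SATB1-negative and 139 FPKM in SATB1-positive HSCs (about 7760 and 6005 fragments). The fold was 1.004 (0.971 to 1.04) and the log2 ratio 0.0061. The counting interval spans 1, and the spread between animals is unknown. Mycl, a further MYC-type gene, was listed as Mycl1 and was at 0.122 and 0.170 FPKM.

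**Figure D2:**
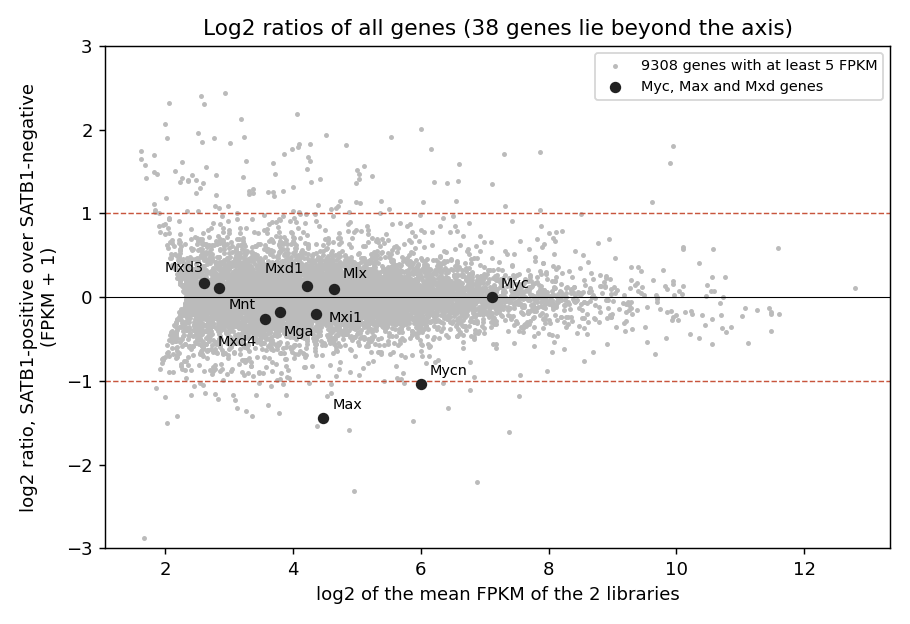
Log2 ratio of each of 9308 genes that reached 5 FPKM (grey) against the log2 of its mean FPKM, with the 10 network genes in black; 38 genes lie beyond the vertical axis and dashed lines mark 1 and -1. Max (-1.45) and Mycn (-1.04) lie below the lower line, and the other 8 members lie between -0.26 and 0.17.

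The antagonists had small ratios on both sides of 0, and none passed the rule. The middle 90% of the 9308 genes ran from -0.47 to 0.51, and the 8 members other than Max and Mycn lay inside it. Of the 6 antagonists, 3 were lower and 3 higher in the SATB1-positive library.

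Mxd4 encodes an MXD protein found in differentiating and resting cells. It was at 12.9 FPKM in SATB1-negative and 10.6 FPKM in SATB1-positive HSCs, 1.22-fold lower (1.13 to 1.32). Mxi1, which encodes MXD2, was at 22.0 and 18.9 FPKM, 1.16-fold lower (1.02 to 1.32). Mga encodes a large protein that pairs with MAX and anchors a variant Polycomb complex, PRC1.6. It was at 14.8 and 12.99 FPKM, 1.14-fold lower (1.10 to 1.19). The intervals of these 3 genes lie on the lower side of 1, but they cover counting error alone, and the median absolute log2 ratio of the 9308 genes was 0.16 against 0.26, 0.21 and 0.18 for these genes.

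Mxd1, an antagonist that rises as myeloid cells differentiate, was at 17.8 FPKM in SATB1-negative and 19.6 FPKM in SATB1-positive HSCs. Its fold was 1.10 (1.05 to 1.17). The log2 ratio of Mxd1 was 0.14, beside a median absolute log2 ratio of 0.16 over the 9308 genes. Mnt, a widely expressed antagonist, was at 6.88 and 7.52 FPKM, a fold of 1.09 (0.999 to 1.20). Mxd3, which is expressed in dividing cells, was at 5.67 and 6.53 FPKM, a fold of 1.15 (0.946 to 1.40) on about 222 and 197 fragments. For Mnt and Mxd3, as for Myc and Mlx, the counting interval spans 1, so counting error alone could give folds of this size. An interval that leaves out 1, as for Mxd1, does not set a difference apart from the spread between animals, which is unknown.

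Mlx encodes a MAX-like protein that pairs with MXD1, MXD4, MNT and the glucose-sensing Mondo proteins, and not with MYC. It was at 24.0 FPKM in SATB1-negative and 25.7 FPKM in SATB1-positive HSCs, a fold of 1.07 (0.987 to 1.16). The Mondo genes are Mlxip, which encodes MondoA, at 7.70 and 8.81 FPKM (1.14-fold higher, 1.02 to 1.28), and Mlxipl, which encodes ChREBP, at 0.0250 and 0.0652 FPKM. The lower Mlxipl value rests on about 3 fragments, and its fold of 2.60 has an interval of 0.554 to 16.04.

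Some of these values touch other genes on the opposite strand. Exons of Psmc3ip overlapped 19.3% of the exon bases of Mlx, and Psmc3ip was at 20.4 and 21.7 FPKM. Gm42846 overlapped 6.06% of those of Mxd4, Prelid1 4.43% of those of Mxd3 and Gm10197 2.84% of those of Mxi1. Prelid1 was at 128 and 172 FPKM, far above Mxd3. Whether the counting used strand is not stated in the sources used here, so the Mlx, Mxd4, Mxd3 and Mxi1 levels are uncertain. The percentages do not bound this uncertainty, least of all for Mxd3, whose neighbour is far more abundant. Myc, Mycn, Max, Mxd1, Mnt and Mga had no exon overlap of this kind.

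The order of the members by FPKM, a level per transcript length, differed between the libraries mainly through Max. In the SATB1-negative library the order from the top was Myc, Mycn, Max, Mlx, Mxi1, Mxd1, Mga, Mxd4, Mnt and Mxd3. The counting intervals of neighbours overlapped there for Mlx and Mxi1 and for Mnt and Mxd3. In the SATB1-positive library the order was Myc, Mycn, Mlx, Mxd1, Mxi1, Mga, Max, Mxd4, Mnt and Mxd3. Intervals overlapped there for Mxd1 and Mxi1, for Max and Mxd4 and for Mnt and Mxd3. Max thus stood at rank 3 of 10 in the SATB1-negative and at rank 7 in the SATB1-positive library, where it could not be set apart from Mxd4.

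Summed over genes, the activators Myc and Mycn were at 225 FPKM in SATB1-negative and 180 FPKM in SATB1-positive HSCs. All of that difference came from Mycn. The 6 antagonists summed to 80.1 and 76.2 FPKM, so activator transcripts stood at 2.81 and 2.36 times the antagonist transcripts. Max was at 10.8 FPKM for every 100 FPKM of its 8 listed partners in the SATB1-negative library and at 4.47 FPKM in the SATB1-positive library. These are transcript levels and do not give the amounts of protein or of dimers.

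**Figure D3:**
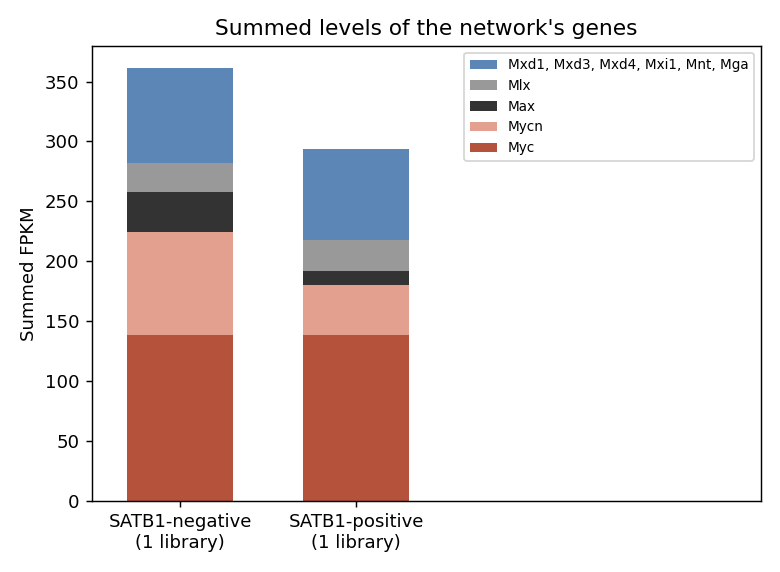
Summed FPKM of the network genes in each library (bars from 0, 1 library per group, no error bars). The Myc segment is the same height in both bars (138 and 139 FPKM), and the Mycn and Max segments are shorter in the SATB1-positive library (41.5 and 11.5 FPKM).

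The 3 protein-coding genes nearest to Max in level and ratio, by Euclidean distance in log2(FPKM + 1) over the 2 libraries, were Npm3, Art4 and Eid2. Npm3, a relative of the nucleolar chaperone gene Npm1, was at 31.5 FPKM in SATB1-negative and 10.2 FPKM in SATB1-positive HSCs. Art4, which carries a blood group antigen, was at 32.3 and 13.7 FPKM, and Eid2, an inhibitor of transcription, at 25.8 and 12.2 FPKM. An antisense gene overlapped 7.08% of the exon bases of Npm3. Nearest to Mycn were the thromboxane synthase gene Tbxas1 (85.6 and 49.2 FPKM), Myct1, a gene named as a MYC target (87.4 and 53.2 FPKM), and the forkhead gene Foxn3 (78.0 and 52.1 FPKM). With 2 libraries such likeness rests on 2 values per gene.

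Transcripts of the proteins that MYC and its antagonists recruit had medians near 0. Of 15 coactivator genes of MYC (members of the TRRAP, TIP60 and p300 complexes, WDR5, the kinase CDK9 with its cyclin, and the MYC partner MIZ-1), 0 passed the rule, 9 had a ratio above 0, and the median was 0.0063. Ruvbl1, a helicase subunit and the most abundant of them, was at 109 and 110 FPKM. Ccnt1, the cyclin of CDK9, chosen after its values were seen, had the lowest ratio at 47.4 and 33.2 FPKM (-0.50), and Zbtb17, which encodes MIZ-1 and was chosen likewise, the highest at 7.78 and 11.1 FPKM (0.46). An antisense gene overlaps 7.59% of the exon bases of Ccnt1. Among 15 genes of the SIN3 corepressor that MXD and MNT proteins recruit, 0 passed and 9 were above 0, with a median of 0.01; Rbbp7, a histone-binding subunit, was at 243 FPKM in both libraries.

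Of 12 genes of the PRC1.6 complex, which contains MGA and MAX, 0 passed and 6 were above 0, with a median of 0.0045. Cbx3, which encodes the heterochromatin protein HP1 gamma, was at 287 and 268 FPKM. Ring1, a ubiquitin ligase shared with other Polycomb complexes and chosen after its values were seen, had the highest ratio of the list at 12.0 and 21.9 FPKM (0.82; 1.83-fold, 1.66 to 2.01). Of 19 genes that act on the stability of MYC proteins, 0 passed and 11 were above 0, with a median of 0.06. Ppp2r5a, a phosphatase subunit that promotes loss of MYC, was at 105 and 101 FPKM. Aurka, the kinase that protects N-MYC, and the mitotic kinase Plk1, chosen after their values were seen and also in the G2 and M phase list, were at 21.9 and 31.2 FPKM and at 27.0 and 41.6 FPKM.

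Of 40 listed genes that MYC is known to induce, 30 had a ratio above 0 and 10 below, and the median was 0.15, beside 49.0% above 0 and a median of -0.0059 over the 11873 genes. One passed as higher, Fbl, which encodes the nucleolar methyltransferase fibrillarin, and 0 passed as lower. Fbl was at 77.7 FPKM in SATB1-negative and 200 FPKM in SATB1-positive HSCs, 2.57-fold higher (2.46 to 2.70). Ncl, which encodes nucleolin, was second at 120 and 225 FPKM (1.88-fold, 1.86 to 1.91), and Npm1 was at 1387 and 1645 FPKM. The Ncl interval rests on a transcript of 8202 bases, and a shorter one would give fewer estimated fragments and a wider interval. Exons of small RNA genes overlap those of Ncl on the same strand, and no exon of another gene overlaps those of Fbl. Ccnd2, which encodes cyclin D2, had the lowest ratio at 84.7 and 55.6 FPKM (-0.60). Antisense genes overlap 3.91% and 3.95% of its exon bases. Ncl, Npm1 and Ccnd2 were chosen after their values were seen. These targets, many of which serve ribosome assembly, stood beside a G2 and M phase list that was also above 0 throughout, and the part of cycling cells in their ratios was not tested.

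Of 11 genes that MYC is known to repress, 9 were measured, 2 had a ratio above 0 and 7 below, and the median was -0.13. One passed as higher and 0 as lower. The gene past the rule was Cebpa, which directs myeloid progenitors toward granulocytes, at 2.18 and 7.23 FPKM (3.31-fold, 2.78 to 3.94). With a pseudocount of 5 its log2 ratio was 0.77, which does not pass. The lowest were Ndrg1, a growth arrest gene, at 20.03 and 9.81 FPKM (-0.96, or -1.02 and past the rule with a pseudocount of 0.1), its relative Ndrg2 at 12.4 and 6.96 FPKM, and Cdkn1c, which encodes the HSC cell cycle inhibitor p57, at 27.2 and 16.5 FPKM. These 3 were chosen after their values were seen, and an antisense gene overlaps 6.35% of the exon bases of Ndrg1.

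Among 5 targets of MLX and the Mondo proteins, 0 passed, 2 were above 0, and the median was -0.04. Txnip, the thioredoxin inhibitor gene that reports Mondo activity, was at 147 and 143 FPKM. Klf10 was the lowest of these 5 at 168 and 114 FPKM (-0.56) and was chosen after its values were seen.

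**Figure D4:**
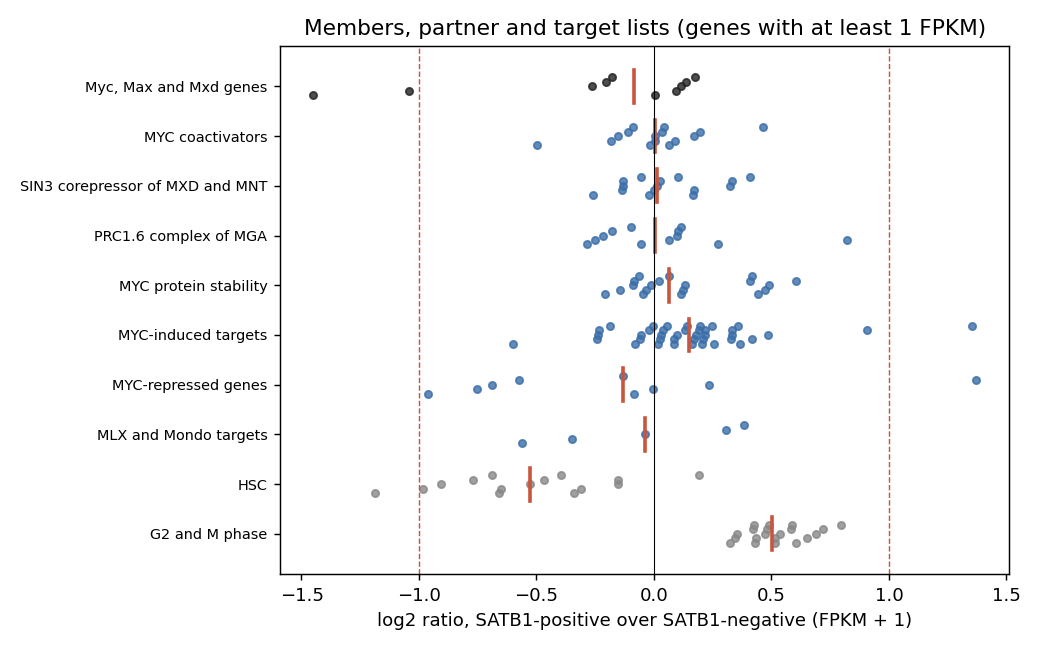
Log2 ratio of each measured gene (points; 1 FPKM or more in at least 1 library) in the network, in 7 lists of partners and targets (blue) and in the HSC and the G2 and M phase lists (grey); red bars are list medians and dashed lines mark 1 and -1. Among the partner and target lists, Fbl and Cebpa alone lie past a dashed line, while the list of MYC-induced targets has its median at 0.15 and that of MYC-repressed genes at -0.13.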

How the data were processed

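Total RNA libraries of SATB1-negative and SATB1-positive HSCs, 1 each, came from a SMARTer Stranded kit, per the labels' protocols. Each deposited file pairs gene symbols with FPKM values, per the file headers. Cufflinks 2.2.1, TopHat2 2.0.13, Bowtie2 2.2.3 and SAMtools 0.1.19 on mm10 are listed in the submitters' processing notes; annotation, settings and strand of counting are not stated in the sources used here. Cufflinks splits fragments between isoforms and overlapping genes by a model, which can shift single genes. Of 23235 rows per file, 25 whose symbols had become dates were left out.

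Depth was estimated from the steps of low FPKM values of single-exon genes in GENCODE M21 (offset 200 bases, searched from 150 to 260). At the depths found, 55.0% of 238 and 56.6% of 279 values were whole within 0.05 fragments, against 10% at random; the depths were chosen for this share and are approximate. Fragments per gene used the shortest RefSeq-linked transcript; 89.6% of symbols had a length. The depth search and the rule of size were tested on simulated data. Python 3.11.15, NumPy 2.4.6, pandas 2.3.3 and SciPy 1.17.1 were used.

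With 1 library per group no test was run. Members and lists were chosen with earlier results of these data known. Named were all members, the Mondo genes and Mycl, up to 2 genes per direction past the rule in each list (otherwise the most abundant), and the 3 genes nearest Max and Mycn. In the coactivator list, 1 gene is not reported here. Promoter sequences and their start sites are from RefSeq (GRCm38.p6), and gene spans are from GENCODE M21. The alternatives tried were a pseudocount of 0.1 or 5, rescaling (median ratio, TPM or upper quartile), other minimums, a log2 threshold of 2 and sums without the most abundant antagonist.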

Additional observations from a re-analysis of the deposited data

How the results depend on the processing

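Results with 1 library per group depend on the pseudocount and the threshold more than on scaling. With a pseudocount of 5 the log2 ratio of Max was -1.21 and that of Mycn -0.98, so 1 member rather than 2 passed as lower; with a log2 threshold of 2, 0 passed. The other alternatives moved each member's ratio by no more than the half-width of its counting interval and left the count at 2. They moved the members' median and the log2 ratios of the sums by less than 0.116, the median of those half-widths. The scalings moved the median of all genes by less than 0.01. Over the partner, target and marker lists, a count moved by over 1.5 times or a median by over 0.116 in 4 cases with a pseudocount of 5, 3 with 0.1 and 2 with TPM, all in the MYC-repressed, HSC, T and NK cell, and mast cell and basophil lists. The median of the PRC1.6 list, near 0, became -0.00082 with upper quartile scaling. Leaving out a replicate could not be done with 1 library per group. No paired analysis was possible because each group has 1 library. Depth limits Mxd3, Mycl1 and Mlxipl most, and intervals do not cover the spread between animals.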
